A study of Mus musculus with 46 samples.

Results

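Mrc1 and 7 further marker genes of border macrophages were followed through microglia of male C57BL/6 mice. The 8 genes are Mrc1, Lyve1, Pf4, F13a1, Cd163, Cbr2, Clec10a and Stab1. They were chosen by name, and each was matched by its symbol to 1 row among the 20999 genes of the count table. In all, 12230 genes passed the filter on low counts, and the 8 members were among them. A filter of this kind passes a gene that is high in a single group, so the number of members tested carries no information on the group. Border macrophages live in the meninges, the choroid plexus and around blood vessels, at the edges of the brain, whereas microglia live in its tissue. Both are macrophages, and the genes followed here are commonly read as marking the border cells. They include receptors that take up sugars, hyaluronan, haemoglobin and modified lipoproteins, together with a chemokine, a clotting enzyme and a metabolic enzyme.

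RNA was sequenced in 5 groups of 2 libraries. Adult cells came from wild-type mice of 90 days without treatment, and their labels also call them Ki67-negative. Cells of postnatal day 8 (PND8), untreated, came from Ki67-rfp mice, which carry a fluorescent reporter of the cell-cycle protein Ki67, and were sorted as Ki67-negative or Ki67-positive. Repopulation cells came from Ki67-rfp mice of 75 days that had eaten PLX5622, a CSF1R inhibitor that depletes microglia, for 17 days from day 55 and had then recovered for 3 days. These were sorted by Ki67 as well. H3K27ac, a histone acetylation found at promoters and enhancers in use, was profiled in wild-type cells that were fixed and stained for Ki67, again with 2 libraries a group. Its 6 groups were adult at 60 and 65 days (untreated by label, although the file headers carry the word Vehicle), PND8 Ki67-negative and Ki67-positive, both Ki67 classes at 90 days after 4 weeks of cuprizone (a toxin that strips myelin), and Ki67-positive cells at 90 days after the same PLX5622 schedule begun at day 70. The labels name CD11b, CD45 and CD44 as the sorting antibodies without the gates.

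RefSeq promoter entries (build GRCm38.p6, the assembly of mm10) were matched by symbol for 6 of the 8 genes: Mrc1, Pf4, F13a1, Cd163, Cbr2 and Stab1. The 250 bases before the start are printed for Mrc1, whose start carried a larger H3K27ac region at PND8 than in adult, for Pf4, which gained a region there at PND8, and for Stab1, which was marked in every library. Capitals mark a motif that was looked for. The Mrc1 sequence lies at chr2:14229164-14229413 on the plus strand, the Pf4 sequence at chr5:90772185-90772434 on the plus strand and the Stab1 sequence at chr14:31168642-31168891 on the minus strand.
Mrc1: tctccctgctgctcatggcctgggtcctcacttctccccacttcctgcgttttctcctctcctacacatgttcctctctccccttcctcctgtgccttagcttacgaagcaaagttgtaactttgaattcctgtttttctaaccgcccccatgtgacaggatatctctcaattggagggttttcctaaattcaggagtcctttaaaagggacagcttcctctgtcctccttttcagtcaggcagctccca
Pf4: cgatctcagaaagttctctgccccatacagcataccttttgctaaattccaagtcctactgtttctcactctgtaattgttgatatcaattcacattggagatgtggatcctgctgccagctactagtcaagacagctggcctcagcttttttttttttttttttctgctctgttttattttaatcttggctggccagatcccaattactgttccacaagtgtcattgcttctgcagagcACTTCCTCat
Stab1: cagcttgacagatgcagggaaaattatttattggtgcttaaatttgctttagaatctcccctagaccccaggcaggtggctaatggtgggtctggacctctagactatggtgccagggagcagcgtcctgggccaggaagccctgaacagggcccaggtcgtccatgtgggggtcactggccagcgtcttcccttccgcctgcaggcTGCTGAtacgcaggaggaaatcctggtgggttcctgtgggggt
The motifs searched on both strands were GAGGAAGT, a form of the site of the myeloid factor PU.1, TGCTGA, a MAF motif, and CACGTG, an E-box. Among 32851 promoter entries cut to the same 250 bases, 2.44% held the first, 16.1% the second and 6.02% the third. The Pf4 window held the PU.1 letters once, on the opposite strand as ACTTCCTC, at positions -10 to -3 counted from the start. The Stab1 window held the MAF motif once, at positions -43 to -38. These letters were in none of the windows of Mrc1, F13a1, Cd163 and Cbr2, which says only that the exact strings are absent there. The GC content was 49.6% for Mrc1, 41.2% for Pf4 and 57.2% for Stab1, beside a median of 52.4% over the entries.

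The RNA libraries held 6865903 to 10287876 counts. Mki67, the gene of the sorted protein, had 242 and 282 CPM (a gene's count relative to the TMM-scaled total of its library) in PND8 Ki67-negative libraries and 920 and 1107 CPM in Ki67-positive ones. After repopulation it had 336 and 463 CPM in Ki67-negative and 930 and 1087 CPM in Ki67-positive libraries, against 13.4 and 11.0 CPM in adult ones. The Ki67-negative fractions outside the adult group therefore still held cycling-cell transcripts. The microglia markers P2ry12, Tmem119 and Sall1 were high in each of the 10 libraries, at 751 to 988 CPM, 487 to 855 CPM and 918 to 1177 CPM. Crybb1 of the same list was at 144 CPM in both adult libraries, 158 to 217 CPM at PND8 and 19.0 to 40.8 CPM after repopulation. Numeric codes in the file headers, unexplained by the labels, were shared by replicate 1 of both PND8 groups, by replicate 2 of both PND8 groups with replicate 1 of both repopulation groups, and by replicate 2 of both repopulation groups. The adult libraries had a code of their own, so genotype, code and age cannot be told apart in any comparison with adult.

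**Figure D1:**
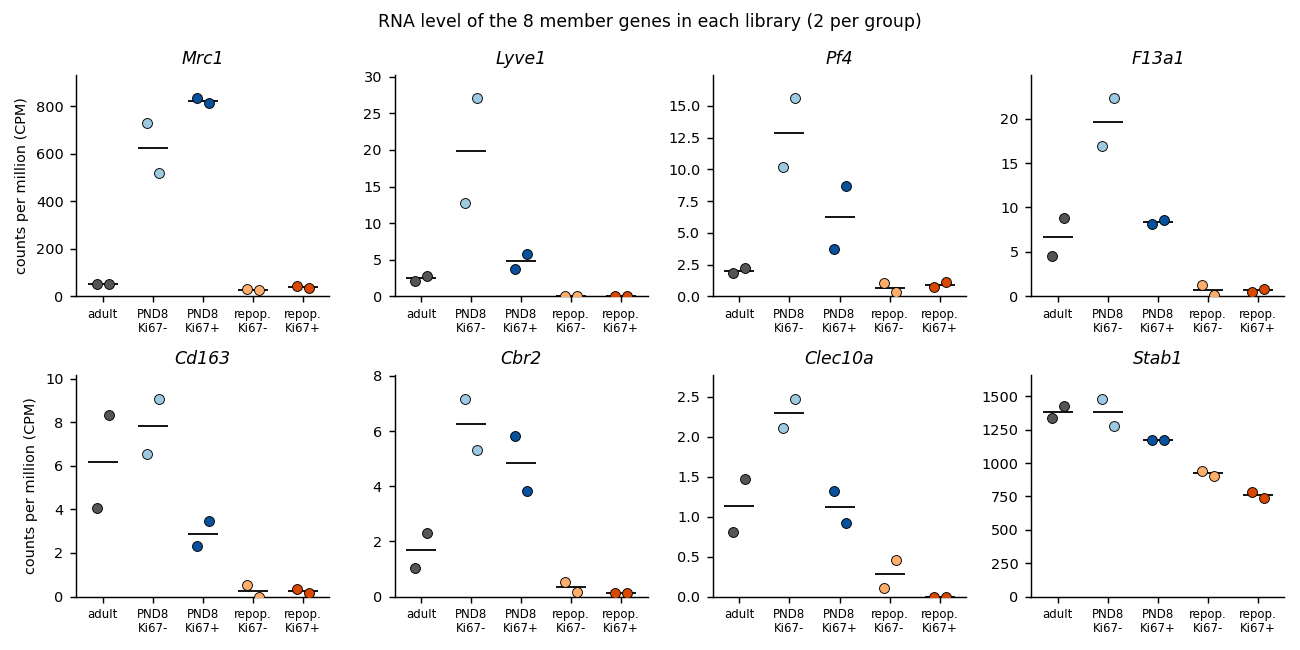
RNA level of each member gene in CPM (vertical axes start at 0 and differ between genes) in the 10 libraries. Points are libraries and bars are group means, with 2 libraries a group. Mrc1 lay between 520 and 834 CPM in the 4 PND8 libraries and at or below 52.7 CPM in the other 6, while Lyve1 had no count in repopulation libraries.

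Mrc1 encodes the macrophage mannose receptor, which takes up mannose-bearing glycoproteins and collagen fragments (NM_008625, mm10 chr2:14229414-14332023, plus strand). It was measured at 49.7 and 52.7 CPM in adult microglia. At PND8 it was at 732 and 520 CPM in Ki67-negative and 834 and 814 CPM in Ki67-positive libraries. After repopulation it was at 28.9 and 25.6 CPM in Ki67-negative and 41.3 and 33.7 CPM in Ki67-positive libraries. The 5 groups did not overlap, in the order PND8 Ki67-positive, PND8 Ki67-negative, adult, repopulation Ki67-positive, repopulation Ki67-negative. The steps between Ki67 classes did not pass by edgeR (adjusted p = 0.0971 at PND8 and 0.201 in repopulation). For this and the orders of libraries given for the members below, the share of all genes with groups as separate was not taken. In edgeR's quasi-likelihood fit over 12230 genes, Mrc1 was 12.2-fold higher than adult in PND8 Ki67-negative cells (log2 3.61 ± 0.151 SE, adjusted p = 2.5e-09). It was 16.1-fold higher in PND8 Ki67-positive cells (log2 4.01 ± 0.153 SE, adjusted p = 5.64e-10). Repopulation cells were below adult, 1.87-fold in Ki67-negative cells (adjusted p = 0.000773) and 1.36-fold in Ki67-positive ones (adjusted p = 0.0359). The last call was lost without adult replicate 1 (log2 -0.48, adjusted p = 0.0853), adult replicate 2 (-0.40, adjusted p = 0.149) or repopulation Ki67-positive replicate 2 (-0.31, adjusted p = 0.241).

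Per transcript length, Mrc1 ranked second to Stab1 among the members in adult and PND8 Ki67-negative cells and above it in both PND8 Ki67-positive libraries. The deposited TPM (a length-scaled share of transcripts) of Mrc1 was 14.2 and 14.98 in adult libraries, where Stab1 had 255.0 and 271 TPM. In PND8 Ki67-positive libraries Mrc1 had 237.5 and 230.2 TPM beside 223 and 222 TPM of Stab1. The TPM ratio of Mrc1 to Stab1 was thus 0.0557 and 0.0553 in adult, 0.74 and 0.611 in PND8 Ki67-negative, 1.07 and 1.04 in PND8 Ki67-positive, and 0.0424 to 0.0789 in repopulation libraries.

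Lyve1, a receptor for hyaluronan that marks macrophages along vessels as well as lymphatic endothelium (NM_053247, chr7:110850607-110862953, minus strand), was low throughout. It had 2.08 and 2.81 CPM in adult, 12.7 and 27.1 CPM in PND8 Ki67-negative, and 3.75 and 5.78 CPM in PND8 Ki67-positive libraries. In the 4 repopulation libraries it had 0 counts. PND8 Ki67-negative cells exceeded adult by 8.17-fold (log2 3.03 ± 0.43 SE, adjusted p = 0.00017, edgeR), and by log2 2.35 without PND8 Ki67-negative replicate 2 (adjusted p = 0.00169). Ki67-positive PND8 cells stood at 1.94-fold of adult, which missed the threshold (log2 0.96 ± 0.468 SE, adjusted p = 0.111). A count of 0 allows up to 3 counts, or 0.312 to 0.457 CPM in the repopulation libraries. Against that floor, applied per library, the lower adult library put Lyve1 at least 4.55-fold lower in Ki67-negative and at least 4.82-fold lower in Ki67-positive repopulation cells. From the lower PND8 library of the same Ki67 class it was at least 27.9-fold and at least 8.67-fold lower. The group means in place of the lower library give 5.35, 5.67, 43.5 and 11, in the same order. These limits cover counting error on the side with 0 counts only, and the adult and PND8 levels were taken as measured.

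Mrc1 and Lyve1 did not keep a fixed ratio. Their TPM ratio was 11.7 and 9.21 in adult libraries, 28.2 and 9.44 in PND8 Ki67-negative libraries, and 109 and 69.2 in PND8 Ki67-positive libraries. The PND8 Ki67-positive libraries were thus above the adult and PND8 Ki67-negative ones, and PND8 Ki67-negative replicate 2 lay within the adult range. In repopulation libraries the ratio has no value, since Lyve1 had 0 counts there beside 6.81 to 11.3 TPM of Mrc1. In bulk RNA, fewer cells of a type and less RNA per cell cannot be told apart.

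Pf4 encodes a chemokine best known from platelets and also made by macrophages (NM_019932, chr5:90772435-90773383, plus strand). It had 1.85 and 2.20 CPM in adult, 10.1 and 15.6 CPM in PND8 Ki67-negative, 3.75 and 8.67 CPM in PND8 Ki67-positive, and 0.305 to 1.15 CPM in repopulation libraries. The PND8 libraries lay above adult and the repopulation libraries below it. Pf4 rose 6.36-fold over adult in PND8 Ki67-negative cells (adjusted p = 0.000421) and 3.05-fold in PND8 Ki67-positive cells (adjusted p = 0.0138), by edgeR. The second call was lost without PND8 Ki67-positive replicate 2 (log2 0.89, adjusted p = 0.218), adult replicate 1 (1.49, adjusted p = 0.0844) or adult replicate 2 (1.74, adjusted p = 0.0516). The fall of Pf4 from adult to repopulation did not pass, at 2.74-fold (adjusted p = 0.097) in Ki67-negative and 2.22-fold (adjusted p = 0.16) in Ki67-positive cells.

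F13a1 encodes the catalytic subunit of coagulation factor XIII, a transglutaminase (NM_028784, chr13:36867178-37049213, minus strand). Its levels were 4.51 and 8.80 CPM in adult, 17.0 and 22.3 CPM in PND8 Ki67-negative, 8.15 and 8.55 CPM in PND8 Ki67-positive and 0.152 to 1.25 CPM in repopulation libraries. The Ki67-positive PND8 libraries lay within the adult range. F13a1 was 2.96-fold higher in PND8 Ki67-negative cells than in adult (adjusted p = 0.00317, edgeR). Repopulation cells were 8.28-fold lower than adult when Ki67-negative (adjusted p = 0.000621) and 10.1-fold lower when Ki67-positive (adjusted p = 0.000345). The Ki67-negative value rests on 12 and 1 counts, and was log2 -5.31 without replicate 1 and -2.39 without replicate 2.

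Cbr2, a carbonyl reductase (NM_007621, chr11:120729485-120732021, minus strand), had 1.04 and 2.32 CPM in adult, 7.18 and 5.32 CPM in PND8 Ki67-negative, 5.84 and 3.81 CPM in PND8 Ki67-positive, and 0.116 to 0.52 CPM in repopulation libraries. PND8 libraries lay above adult and repopulation libraries below. Cbr2 rose 3.69-fold in PND8 Ki67-negative cells (adjusted p = 0.00501) and 2.88-fold in Ki67-positive cells (adjusted p = 0.017), by edgeR. Without adult replicate 1 these became log2 1.41 (adjusted p = 0.0678) and 1.05 (adjusted p = 0.157), and without PND8 Ki67-positive replicate 1 the second became 1.19 (adjusted p = 0.143). Without adult replicate 2 they were log2 2.56 and 2.20 and passed. Repopulation Ki67-negative cells were 4.42-fold below adult (adjusted p = 0.0272), a call lost without adult replicate 2 (log2 -1.47, adjusted p = 0.228) or repopulation Ki67-negative replicate 2 (-1.65, adjusted p = 0.154), and log2 -3.33 without its replicate 1. In Ki67-positive repopulation cells 2 counts remained beside 28 in adult, a pooled ratio of 13 with a 95% counting interval of 3.27 to 112.

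Cd163, the scavenger receptor for haemoglobin bound to haptoglobin (NM_001170395, chr6:124304651-124330527, plus strand), followed another course. It had 4.05 and 8.31 CPM in adult, 6.56 and 9.08 CPM in PND8 Ki67-negative, 2.31 and 3.47 CPM in PND8 Ki67-positive and 0 to 0.52 CPM in repopulation libraries. The adult and PND8 Ki67-negative values overlapped, and the PND8 Ki67-positive values lay below both. Neither PND8 group passed against adult (log2 0.35 ± 0.442 SE, adjusted p = 0.54, and -1.09 ± 0.484 SE, adjusted p = 0.0768, edgeR). The second passed without adult replicate 1 (log2 -1.52, adjusted p = 0.0427). Cd163 fell 19.4-fold from adult in Ki67-negative repopulation cells (adjusted p = 0.000347), where 5 and 0 counts remained, and by log2 -3.53 without replicate 2 of that group or -3.67 without adult replicate 2. Without repopulation Ki67-negative replicate 1 no count is left. For Ki67-positive repopulation cells 4 counts stood beside 103 in adult, a ratio of 23.9 with a 95% counting interval of 9.04 to 89.2.

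Clec10a, a lectin for galactose-type sugars (NM_010796, chr11:70166623-70170836, plus strand), was the lowest member in adult and PND8 by CPM. It had 0.81 and 1.47 CPM in adult, 2.10 and 2.48 CPM in PND8 Ki67-negative, 1.32 and 0.925 CPM in PND8 Ki67-positive, 0.104 and 0.457 CPM in repopulation Ki67-negative and 0 counts in repopulation Ki67-positive libraries. The PND8 comparisons with adult did not pass (adjusted p = 0.187 and 0.992, edgeR). In Ki67-positive repopulation cells it was at least 1.87-fold lower than the lower adult library and at least 2.14-fold lower than the lower PND8 library at the floor per library (2.64 and 2.6 from the group means). For Ki67-negative repopulation cells the pooled ratio of adult to repopulation was 4.56 with a 95% counting interval of 1.52 to 18.4, and the fitted change did not pass (adjusted p = 0.0707).

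Stab1 encodes stabilin, a large receptor for modified lipoproteins and matrix fragments (NM_138672, chr14:31139017-31168641, minus strand), and was the most abundant member in adult cells. It had 1338 and 1429 CPM in adult, 1483 and 1275 CPM in PND8 Ki67-negative, 1172 and 1175 CPM in PND8 Ki67-positive, 939 and 905 CPM in repopulation Ki67-negative, and 785 and 738 CPM in repopulation Ki67-positive libraries. Adult and PND8 Ki67-negative libraries overlapped, and the other 3 groups followed in descending order without overlap. Stab1 was 1.5-fold below adult in Ki67-negative (adjusted p = 0.000257) and 1.82-fold below in Ki67-positive repopulation cells (adjusted p = 6.97e-06), by edgeR. The fall to 1.18-fold below adult in PND8 Ki67-positive cells (log2 -0.24 ± 0.0917 SE, adjusted p = 0.0461) was lost without any 1 of the 4 libraries (log2 -0.28 without adult replicate 1, -0.19 without adult replicate 2, -0.23 without either PND8 Ki67-positive replicate, adjusted p between 0.0832 and 0.246).

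**Figure D2:**
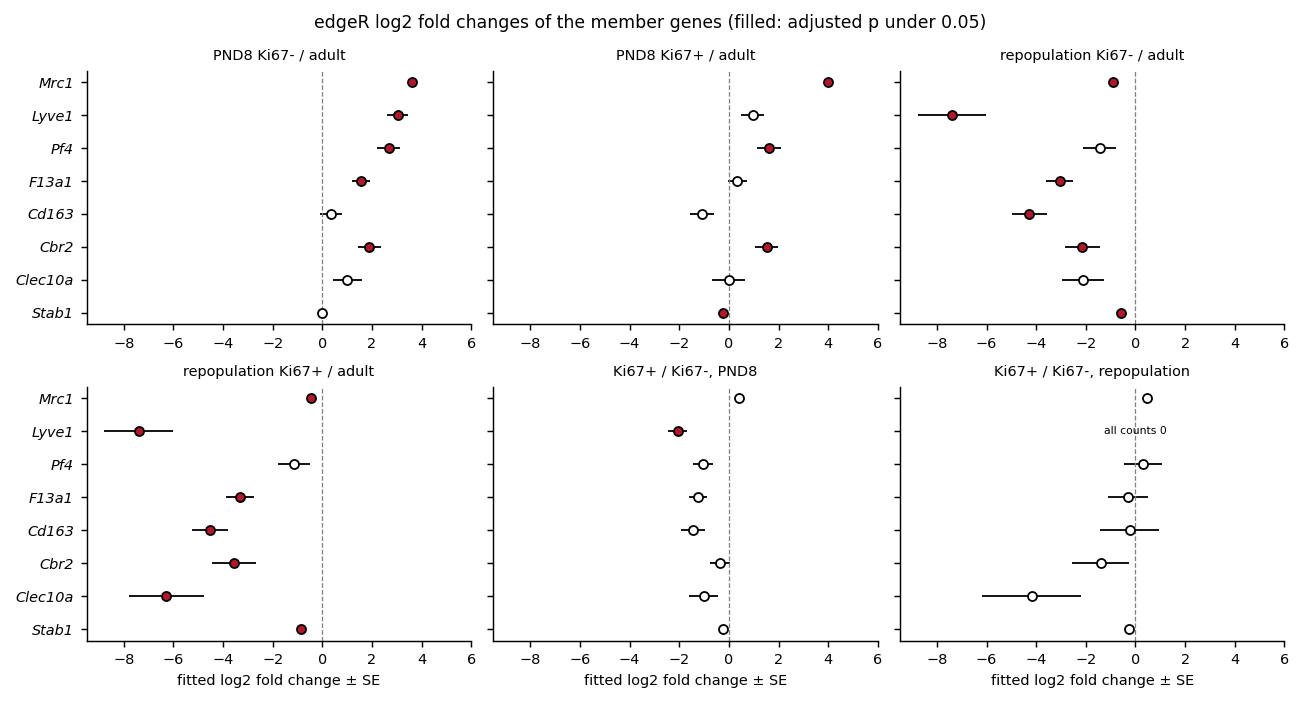
Fitted log2 fold changes (horizontal axes) of the member genes in 6 comparisons, with bars of 1 SE, from the edgeR fit over 10 libraries. Filled points passed an adjusted p of 0.05. The values of Lyve1 in repopulation, and of Clec10a in Ki67-positive repopulation cells, rest on groups with 0 counts and are no measured folds.

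Counted over the members, 5 of 8 were higher in PND8 Ki67-negative cells than in adult and none was lower by edgeR's test, with a median log2 change of 1.73 against 0.03 over all genes tested. In that comparison 46.8% of all tested genes were called and 25.4% were called higher. In PND8 Ki67-positive cells 3 were higher and 1 lower (49.5% of all genes called, 25.1% higher and 24.3% lower), with a median of 0.64. In repopulation Ki67-negative cells 6 were lower than adult and none higher (39.2% called, 17.6% called lower). In repopulation Ki67-positive cells 7 were lower (44.9% called, 21% called lower). These 4 comparisons share the adult libraries. The unadjusted p was under 0.05 for 5, 5, 8 and 7 of the members in the same order, against 53.3%, 55.8%, 47.4% and 52.3% of all genes.

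Repopulation and PND8 cells of the same Ki67 class were compared directly. The 8 members were lower after repopulation in Ki67-negative cells, where 36.6% of all genes were called and 18.6% called lower. The 8 were lower in Ki67-positive cells too, where 30.9% were called and 14.2% called lower. Mrc1 was 22.8-fold lower in Ki67-negative (log2 -4.51 ± 0.162 SE, adjusted p = 4.49e-10) and 21.9-fold lower in Ki67-positive cells (log2 -4.45 ± 0.158 SE, adjusted p = 3.71e-10). Stab1 moved least, 1.49-fold and 1.54-fold lower (adjusted p = 0.000321 and 0.000195). In Ki67-negative cells Pf4, F13a1, Cd163 and Cbr2 were lower by log2 -4.12, -4.62, -4.63 and -4.03. Their repopulation counts were 10 and 2, 12 and 1, 5 and 0, and 5 and 1, so these sizes are loose: without replicate 2 they were -3.61, -3.96, -3.88 and -3.54. Without replicate 1 Pf4, F13a1 and Cbr2 were -5.34, -6.88 and -5.22, and Cd163 has no count left. Clec10a lost its call without repopulation Ki67-negative replicate 1 (log2 -2.29, adjusted p = 0.127), and in Ki67-positive cells without repopulation Ki67-positive replicate 1 (adjusted p = 0.0658). Replicate 2 of PND8 and replicate 1 of repopulation share a header code, and within that code Mrc1 differed by log2 -4.16 in Ki67-negative and -4.29 in Ki67-positive cells. Ages differed as well, so age and depletion cannot be told apart.

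Within PND8, the Ki67 classes differed for 1 of 8 members, where 5.9% of all genes were called and 3.15% called lower. Lyve1 was 4.21-fold lower in Ki67-positive than in Ki67-negative cells (log2 -2.07 ± 0.394 SE, adjusted p = 0.00927, edgeR). Within the 2 header codes the Lyve1 difference was log2 -1.71 and -2.18. The call was lost without PND8 Ki67-negative replicate 2 (log2 -1.39, adjusted p = 0.077), PND8 Ki67-positive replicate 1 (-1.76, adjusted p = 0.0903) or Ki67-positive replicate 2 (-2.38, adjusted p = 0.0537). F13a1 (log2 -1.24 ± 0.352 SE, adjusted p = 0.0565), Cd163 (-1.44 ± 0.474 SE, adjusted p = 0.097) and Pf4 (-1.06 ± 0.404 SE, adjusted p = 0.155) lay below 0 and did not pass. Mrc1 lay above 0 (log2 0.40 ± 0.131 SE, adjusted p = 0.0971), with both Ki67-positive libraries above both Ki67-negative ones. Mrc1 alone of the 8 had a positive value in this comparison, and within codes it was 0.19 and 0.65.

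Other fits called more members between the PND8 Ki67 classes. With the header code as a term in the fit, 15.2% of all genes and 5 members passed: Mrc1 higher (log2 0.42, adjusted p = 0.00281), and Lyve1, F13a1 (-1.22, adjusted p = 0.0103), Cd163 (-1.44, adjusted p = 0.0212) and Pf4 (-1.10, adjusted p = 0.025) lower. Leaving out PND8 Ki67-negative replicate 1 gave Mrc1 0.67 (adjusted p = 0.0013) and F13a1 -1.41 (adjusted p = 0.0368), and leaving out Ki67-negative replicate 2 gave Stab1 -0.31 (adjusted p = 0.0219).

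Within repopulation, none of the 7 members with a value passed between the Ki67 classes by edgeR (2.74% of all genes were called). DESeq2 called none either. At an unadjusted p under 0.05 there were 2 of 7, against 15.8% of all genes: Mrc1 (log2 0.46 ± 0.169 SE, adjusted p = 0.201) and Stab1 (-0.28 ± 0.0922 SE, adjusted p = 0.148). With the header code as a term both passed (adjusted p = 0.0342 and 0.0423), as did 9.92% of all genes. Mrc1 was 0.51 and 0.39 higher within codes. The difference between the repopulation and PND8 Ki67 effects was tested as an interaction, in which 0% of genes were called by edgeR. None of the 7 members reached an unadjusted p of 0.05 there, against 613 of 12230 genes (5.01%), and DESeq2 called none of them. For Mrc1 the interaction was log2 0.06 ± 0.213 SE.

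A second list of 26 border macrophage genes, of which 18 were tested, was read beside the members. The filter passes a gene that is high in a single group, and Fcna, Colec12 and Clec4n passed through PND8. Fcna was at 0.694 and 0.489 CPM in adult and 7.05 and 8.81 CPM in PND8 Ki67-negative libraries. The counts below therefore lean towards genes high at PND8. The untested genes of the list were at 0 to 2.48 CPM in the RNA libraries. In PND8 Ki67-negative cells 14 of the 18 were higher and 2 lower than adult, against 25.4% and 21.4% of all genes, with a median of log2 1.62. In PND8 Ki67-positive cells 12 were higher and 1 lower, against 25.1% and 24.3%, with a median of 1.05. Those with the largest called changes in Ki67-negative cells were the scavenger receptor Colec12 (log2 3.82), the ficolin Fcna (3.71), the endothelin receptor Ednrb (3.30), the folate receptor Folr2 (2.86) and Igfbp4 (2.27), which binds insulin-like growth factors. After repopulation 8 were lower and 2 higher than adult in Ki67-negative cells (17.6% and 21.5% of all genes), and 9 lower and 2 higher in Ki67-positive cells (21% and 23.9%). Against PND8, 14 were lower and 1 higher in Ki67-negative cells (18.6% and 18% of all genes), and 15 lower and 1 higher in Ki67-positive cells (14.2% and 16.7%). Between Ki67 classes at PND8, Colec12 (log2 -1.12) and the iron exporter Slc40a1 (-0.47) were lower in Ki67-positive cells (3.15% of all genes) and the matrix protein Tgfbi (0.43) was higher (2.75%). In repopulation 3 of the 18 were lower in Ki67-positive cells (0.867% of all genes) and none higher (1.87%).

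**Figure D3:**
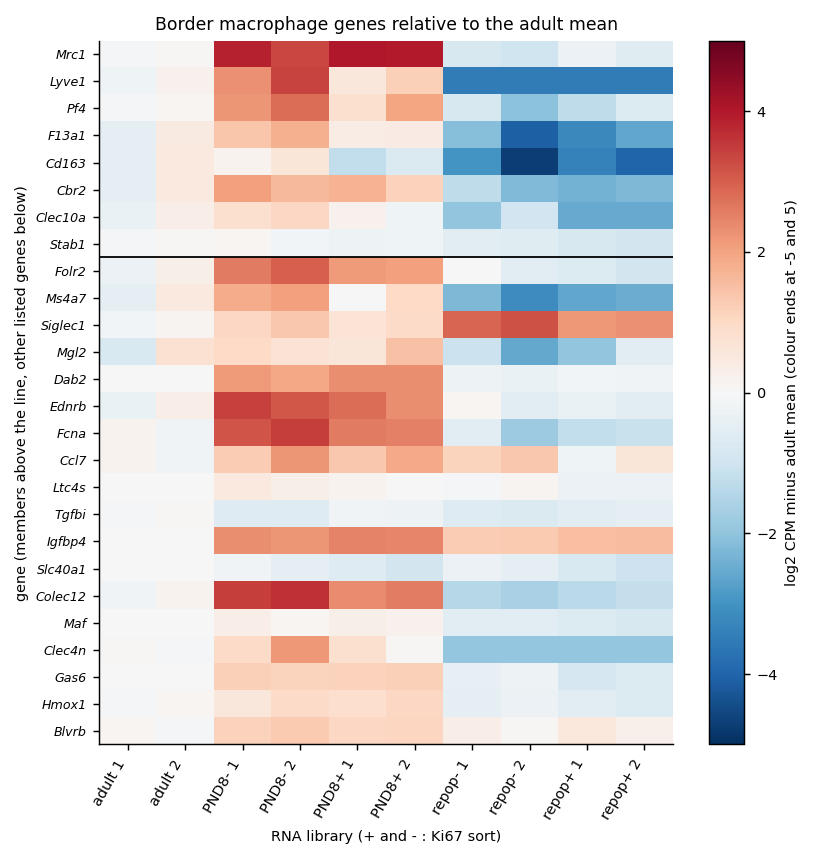
Log2 CPM (prior count 2) of the 8 members, above the line, and of the 18 other border macrophage genes tested, below it, minus the mean of the 2 adult libraries. Columns are the 10 RNA libraries, and red is above adult. The PND8 columns are red for most genes of both lists, while Siglec1 and Igfbp4 are red in the repopulation columns as well, and colours end at log2 -5 and 5.

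The tested genes most like Mrc1 over the 10 libraries, by Pearson's r of log2 CPM, were Dab2 (r = 0.998), Ash2l (0.992), Ttyh3 (0.99), Srp72 (0.987) and Nnt (0.985). Dab2, an endocytic adaptor that is also on the second list, was at 71.1 ± 1.42 CPM in adult, 292 ± 22.8 in PND8 Ki67-negative, 355 ± 0.578 in PND8 Ki67-positive, 57.9 ± 2.34 in repopulation Ki67-negative and 64.2 ± 1.18 CPM in repopulation Ki67-positive cells (SD, n = 2). Its group order was that of Mrc1. The genes most like Lyve1 were Cd38 (0.996), Ms4a7 (0.985), Serpine2 (0.98), Cryz (0.98) and Clec4n (0.978). Cd38 and Clec4n, like Lyve1, had no counts in repopulation libraries, and Ms4a7 was at 7.87 ± 0.804 CPM in PND8 Ki67-negative and 2.90 ± 1.46 CPM in PND8 Ki67-positive cells (SD, n = 2). Mrc1 ranked at 649 in likeness to Lyve1 (r = 0.846), behind F13a1 (30), Pf4 (83), Cbr2 (84), Clec10a (164), Cd163 (190) and Stab1 (590). These correlations are descriptions over libraries that share groups, with 0 counts tied in 4 libraries for Lyve1.

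Marker lists of other cells differed between libraries, not all in the same direction. Blood endothelium genes, for example, summed to 22.2 and 23.1 CPM in adult, 17.4 to 18.6 CPM at PND8 and 26.3 to 39.9 CPM in repopulation libraries. The summed level of 8 choroid plexus epithelium genes (Ttr, Enpp2 and others) was 49.3 and 70.6 CPM in adult, 278 and 112 CPM in PND8 Ki67-negative, 77.7 and 29.9 CPM in PND8 Ki67-positive, and 4.72 to 11.2 CPM in repopulation libraries. Of 10 leptomeningeal fibroblast genes, summed at 1.39 and 2.44 CPM in adult, 46.8 and 13.03 CPM in PND8 Ki67-negative, 8.15 and 4.97 CPM in PND8 Ki67-positive and 0.457 to 0.864 CPM in repopulation, Igf2 gave most at PND8. Of the 10, only Igf2 and Col1a2 were tested. Both were called higher in PND8 Ki67-negative cells than in adult, and lower after repopulation than at PND8 in each Ki67 class. The filter passes a gene that is high in a single group, and both were highest in PND8 Ki67-negative libraries. Their calls therefore give no information on the list. The same holds for the erythroid calls below, whose genes also passed through PND8. Col1a2 was at 2.10 and 1.38 CPM in PND8 Ki67-negative libraries and at 0 after repopulation, and Dcn and Lum were at 0 in 9 of the 10 libraries each. PND8 Ki67-negative replicate 1 was highest in both sums, and Mrc1, Cbr2 and Stab1 were also higher in replicate 1 than in replicate 2 of that group, whereas Lyve1, Pf4, F13a1, Cd163 and Clec10a were higher in replicate 2. The erythroid list (5 genes, globins and Alas2) summed to 0.463 and 7.21 CPM in adult, 75.4 and 31.6 CPM in PND8 Ki67-negative, 61.0 and 23.1 CPM in PND8 Ki67-positive and 0.416 to 1.37 CPM in repopulation libraries, and its 5 genes were called higher at PND8 than in adult and lower after repopulation than at PND8 in both classes (Hba-a1 and Hba-a2, near-identical copies, had equal values). The lymphatic endothelium list summed to 28.1 to 52.6 CPM in the 10 libraries, nearly all of it Prox1, while its genes Ccl21a and Mmrn1 were at 0 in each. Astrocyte genes, mostly Slc1a3, summed to 236 and 245 CPM in adult and 407 to 564 CPM in repopulation libraries. At PND8 that sum was 82.5 and 428 CPM in Ki67-negative and 52.3 and 371 CPM in Ki67-positive libraries, so replicate 1 lay below replicate 2 in both classes. A list of 10 monocyte and neutrophil genes was at 250.4 and 74.7 CPM in adult against 7.52 to 18.5 CPM elsewhere, with the neutrophil gene Ngp (83.4 and 20.2 CPM in adult) leading it. Plac8 of that list went the other way, at 1.16 and 0.733 CPM in adult and 2.85 to 12.95 CPM elsewhere. Their part in the results on the members was not tested.

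At the chromatin level, each H3K27ac list holds the authors' regions called by library. The signal of a region is theirs too, in tags per 10000000, and its percentile is the share of that list's regions with lower signal. Within 1 kb of the start, both libraries of a group held a region for 2 of the 8 members in adult (Mrc1 and Stab1, against 40.8% of all genes and 68.7% of the genes tested in RNA). In both PND8 groups the count was 4, with Pf4 and F13a1 added (48.1% of all genes in Ki67-negative and 49.2% in Ki67-positive cells, or 80.5% and 82.3% of tested genes). After cuprizone it was 2 in Ki67-negative (43.8%) and 3 in Ki67-positive cells (45.8%), and in repopulation Ki67-positive cells it was 1, Stab1 (47.2%, or 79.0% of tested genes). The members' share was below that of tested genes in each group. Pf4 and F13a1 had a region in both PND8 libraries and neither adult library in both Ki67 classes, as did 2.67% of all genes in Ki67-negative and 3.51% in Ki67-positive cells. Pf4 alone of the members was gained so after cuprizone, in Ki67-positive cells (2.15% of all genes). It was the 1 member gained there relative to cuprizone Ki67-negative cells as well (0.414%). F13a1 alone was marked in both Ki67-positive libraries of PND8 and neither of repopulation (0.529%).

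The Mrc1 start carried a far larger region at PND8 than in adult. At its start, adult libraries had a signal of 24.0 over 893 bases and 60.2 over 1209 bases, at percentiles 16.2 and 31.6 of their lists. PND8 Ki67-negative libraries had 296.9 over 2605 bases and 389.9 over 3393 bases, at percentiles 82.2 and 90.7. PND8 Ki67-positive libraries had 351.8 over 2368 bases and 447.1 over 2717 bases, at percentiles 86.8 and 90.2. Per kb of region this was 26.9 and 49.8 in adult against 114.0 to 164.6 at PND8, so the PND8 regions were both longer and denser in tags. After cuprizone the signal was 53.5 and 62.6 in Ki67-negative and 13.8 and 39.0 in Ki67-positive libraries. Repopulation replicate 1 had no region within 1 kb of the Mrc1 start, and replicate 2 had one of 45.1. PND8 replicate 2 shares a header code with adult replicate 2, and the adult signal there was 60.2 beside 389.9 and 447.1 at PND8.

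A second region inside Mrc1 did not follow the start. It lay about 15 kb downstream, and was present in 11 of the 12 libraries, adult replicate 1 being without it. Its signal was 98.7 in adult replicate 2, 49.5 to 120.5 at PND8, 17.0 to 57 after cuprizone and 102.8 and 150.0 in repopulation. Of the same Ki67 class, the PND8 values here (49.5 and 120.5) and the repopulation values overlapped, whereas at the start they did not. Nearer the start, about 4 kb downstream, a region was listed in both adult (19.7 and 33.9) and both repopulation libraries (13.7 and 81.8). At PND8 it was listed in Ki67-negative replicate 2 alone (75.4), and in no cuprizone library. One between it and the region at 15 kb was in at least 1 library of each group (11.6 to 65.3). A further region, starting just inside the window of 20 kb, was listed in the 4 PND8 libraries at 61.7 to 118.6, and in no other H3K27ac library did a region there reach into the window. Adult replicate 1 had the fewest regions of the 12 lists, 19572 against up to 30539. The window of 20 kb around the Mrc1 start holds no start of another gene in the table.

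**Figure D4:**
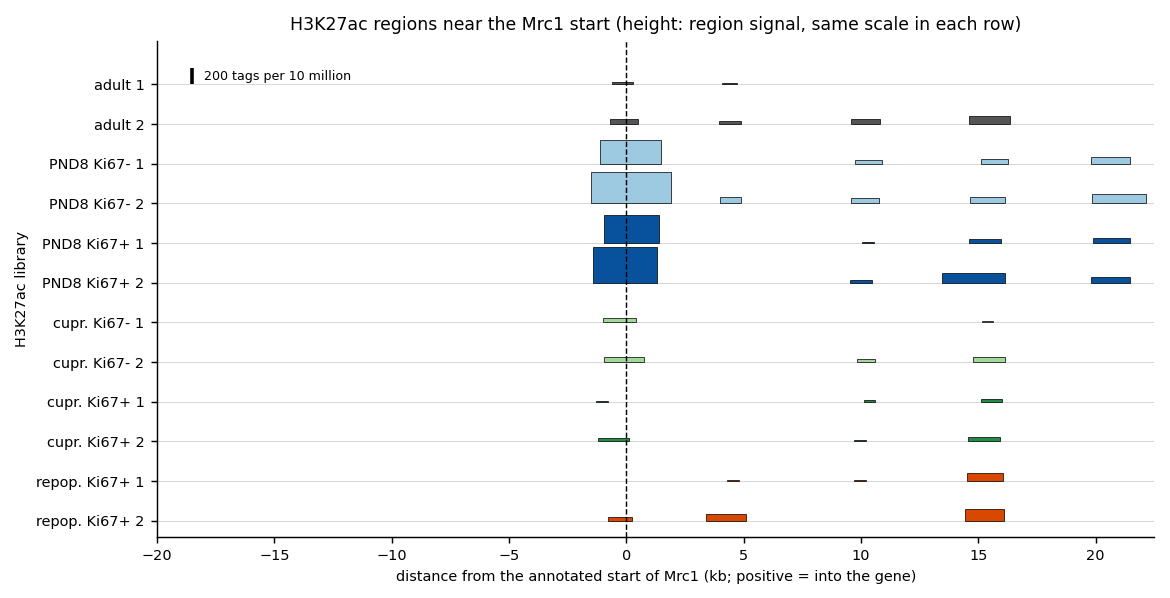
H3K27ac regions around the Mrc1 start in the 12 libraries, plotted by distance from the start in kb (dashed line at 0). Each bar spans a region and its height is the authors' signal, on 1 scale for all rows. The tall bars at 0 belong to the 4 PND8 libraries (296.9 to 447.1), and the bar near 15 kb appears in 11 of 12 libraries.

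Stab1 was marked more strongly at its start than Mrc1 in each of the 12 libraries, from 535.6 to 1139.5, at percentiles 92.8 to 98.0. Among the other members, Pf4 had signals of 53.1 and 65.3 in PND8 Ki67-negative, 37.2 and 67.3 in PND8 Ki67-positive, 14.4 and 12.1 in cuprizone Ki67-positive and 12.5 in 1 repopulation library. F13a1 had 14.3 and, summed over a pair of regions, 44.1 in PND8 Ki67-negative and 24.0 and 11.6 in PND8 Ki67-positive libraries. These lie low in their lists, at percentiles 3.8 to 18.9 for F13a1 and 25.8 to 40.6 for Pf4 at PND8. Lyve1 had a region at its start in 1 library of 12, PND8 Ki67-negative replicate 2 (53.3 over 2164 bases). That library also held regions at Cd163 (13.8), Clec10a (13.8) and Cbr2 (38.6), at percentiles 5.9, 5.9 and 26.7. All 8 members were thus marked there against 4 in replicate 1. Replicate 2 listed more regions, 29333 against 27644, and the share of all genes marked in a single library was not taken. The RNA counterpart of replicate 2 by label is not known to be the same animals.

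Within 20 kb of the start, both libraries held a region for 4 members in adult (53.7% of all genes), 6 in either PND8 group (60.8% and 61.9%), 5 and 6 after cuprizone (57% and 58.7%) and 5 in repopulation (60.1%). Of the genes tested in RNA, the shares were 81.3% in adult, 90.4% and 91.5% at PND8, 85.1% and 87.6% after cuprizone and 89.5% in repopulation. The share of the 8 members was below that of tested genes in each group. The F13a1 window had a region about 7 kb upstream of the start in every PND8, cuprizone and repopulation library (36.0 to 85.1) and in neither adult library. In the Lyve1 window the region about 18 kb downstream is near the start of Rnf141, and 4 further genes start within 20 kb of Cbr2 and 3 within 20 kb of Pf4, so those counts are not of the members alone.

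The remaining assays had 1 or 2 libraries a group and give no test. Their adult groups were untreated wild-type mice by label, aged 75 days for H3K4me3, 60 and 65 days for Rpb2 (with the word Vehicle in the headers) and 80 days for ATAC-seq. The title of Rpb2 adult replicate 2 gives day 60, while the title of its input gives day 65. Rpb2 was also profiled in PND8 Ki67-positive cells of wild-type mice. The ATAC-seq titles name the Ki67-rfp reporter for the PND8 and repopulation Ki67-positive libraries, while the genotype label says wild type, and the repopulation sample was taken at 75 days, after 17 days of PLX5622 from day 55 and 3 days of recovery. H3K4me3, a promoter mark, had regions within 1 kb of the starts of Mrc1 (summed signals 53.8 and 42.5) and Stab1 (425.4 and 358.1) in both libraries, as did 59.1% of all genes. Rpb2, a subunit of RNA polymerase II, had a peak within 1 kb of the Stab1 start in the 3 libraries and of no other member (28.1% of all genes in both adult libraries and 48.4% in the PND8 Ki67-positive one). In the latter a peak lay upstream of that window at Mrc1, at -1336 to -1146. Open chromatin by ATAC-seq, with 1 library a group, was called within 1 kb of the start for Mrc1, Pf4 and Stab1 in adult cells (56% of all genes). In PND8 and repopulation Ki67-positive cells F13a1 and Clec10a were added (58.4% and 60.8%). Outside that window, the 3 ATAC libraries had a peak upstream of F13a1, at -7708 to -7596 in adult. Its signals were 107.8 in adult, 67.8 at PND8 and 73.4 in repopulation, although adult cells had no H3K27ac region there. The Mrc1 peak common to the 3 ATAC libraries lay upstream of the printed sequence, at -771 to -659 in adult, with signals of 41.9 in adult, 19.0 at PND8 and 19.8 in repopulation. A peak within the printed Mrc1 sequence, at -218 to -104, was called in the repopulation library (9.32) and not in the others. At Pf4 the 3 libraries shared a peak far upstream of the printed sequence, with signals of 10.5, 19.0 and 26.8. A peak over the Pf4 start was called at PND8 (-29 to 89, signal 10.8) and in repopulation (-39 to 75, signal 18.6) but not in adult, and both stretches hold the PU.1 letters printed in capitals.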

How the data were processed

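The members and lists were chosen with earlier results of these data known, so no pattern here is independent support. The authors counted reads over exons of mm10 with HOMER, giving raw counts, per the file headers, and the deposited TPM values name the same tool. The submitters' processing notes name STAR 2.7.0f, Bowtie2 2.3.4.1 and HOMER 4.11. TPM sums per library were 472498.1 to 486778.7, and for F13a1 and Cd163 the TPM table names another transcript. H3K27ac, H3K4me3, Rpb2 and ATAC-seq regions were called per library, per the file headers. Their signal is the authors' tag count normalized to 10000000 tags, and the deposited HOMER score was used as a filter in an alternative. Counts were fitted with edgeR 4.0.16 (TMM, filterByExpr, quasi-likelihood, all 10 libraries, Benjamini-Hochberg over 12230 genes, threshold 0.05). The SE printed with edgeR's log2 fold changes is an approximation, the absolute log2 fold change divided by the square root of the quasi-likelihood F. The common biological coefficient of variation was 0.0957. Labels state independent biological replicates. Replicates of a group differed by more than sampling noise (chi-square per degree of freedom 2.56 to 12.1). Named genes were the 8 members in each comparison, Mki67, up to 5 called genes of the second list by fold in 2 comparisons, and the 5 genes most like Mrc1 and Lyve1. A region counted when it overlapped a window by 1 base. The code was tested on simulated data. Alternatives were DESeq2 1.42.0, limma 3.58.1 on log2 TPM, other scaling and filters, batch and replicate terms, and leaving out libraries.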

Additional observations from a re-analysis of the deposited data

How the results depend on the processing

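With 2 libraries a group, levels of a few counts (Clec10a, and Cd163, Cbr2, Pf4 and F13a1 after repopulation) carry little precision, and adult cannot be separated from its header code and genotype. Of 825 single-gene alternatives, 743 kept direction and side of the threshold, 31 gained a call, 23 lost one and 28 changed sign. The rises of Mrc1 over adult at PND8 held in every alternative run (log2 3.34 to 3.81 in Ki67-negative and 3.91 to 4.05 in Ki67-positive cells). The number of members called between Ki67 classes at PND8, 1 as reported, was 2 with DESeq2, 5 without a filter, 0 with limma on log2(TPM + 0.1), 5 with the header code as a term and 2 with only the compared groups. In repopulation, 0 as reported, it was 2 without a filter and 2 with the header code. With the replicate block, 4 members were called between Ki67 classes at PND8. With the header code, the share of all genes called rose from 5.9% to 15.2% at PND8 and from 2.74% to 9.92% in repopulation. For the other alternatives that share was not taken, so a change in their counts cannot be assigned to the members. The labels do not state that the numbers pair libraries: same-numbered deviations correlated at 0.338 between PND8 classes, 0.263 between repopulation classes and 0.0111 between adult and PND8 Ki67-negative. Leaving out 1 library gave 0 to 3 calls between PND8 Ki67 classes and 2 between PND8 Ki67-positive and adult, where 4 were reported and Mrc1 was among the 2 each time. With regions scoring at least the median of their list, members marked within 1 kb fell to 1 in adult, 2 in PND8 Ki67-negative, 2 in PND8 Ki67-positive, 1 in cuprizone Ki67-negative and 1 in cuprizone Ki67-positive cells. Within 20 kb they fell to 1 in adult, 2 and 1 in the cuprizone classes and 2 in repopulation. The share of all genes marked was not taken at that score, nor with 1 library left out. Leaving out 1 library gave 4 to 8 members within 1 kb in PND8 Ki67-negative (8 without replicate 1) and 1 to 3 in repopulation cells (3 without replicate 1). The sign changes below were in values that had not passed as reported. Stab1 in PND8 Ki67-negative cells against adult became 0.04 by library sizes only (-0.12 to 0.08 leaving out 1 library). Clec10a in PND8 Ki67-positive cells against adult became 0.03 by library sizes only, 0.02 with the replicate block, 0.01 with limma on log2(TPM + 0.1) and 0.0 with only the compared groups (-0.38 to 0.47 leaving out 1 library). Leaving out 1 library, Cd163 in PND8 Ki67-negative cells against adult ran from -0.08 to 0.95, and F13a1 in PND8 Ki67-positive cells from -0.08 to 0.89. Between repopulation classes, F13a1 became 0.17 and Cd163 0.09 with limma on log2(TPM + 0.1), and leaving out 1 library gave -0.94 to 1.98 for F13a1, -1.02 to 4.19 for Cd163 and -0.20 to 1.52 for Pf4. In the interaction, Mrc1, Cbr2 and Clec10a became -0.03, 0.03 and 0.30 with limma on log2(TPM + 1), and leaving out 1 library gave -0.21 to 0.24 for Mrc1, -0.16 to 0.01 for Stab1 and -1.55 to 0.14 for Cbr2. Except where stated, the cause was not tested.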

Other observations

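Relative to adult, genes of antigen presentation by MHC class II, which some border macrophages carry, moved against the members at PND8 and with them after repopulation. Of 5 such genes tested (H2-Aa, H2-Ab1, H2-Eb1, Cd74 and Ciita), 4 were lower than adult and none higher in either PND8 group by edgeR, against 21.4% and 24.3% of all genes called lower, while 5 and 3 of the members were higher. The medians were log2 -2.69 and -2.79. After repopulation 3 were lower than adult in Ki67-negative and 4 in Ki67-positive cells, as were 6 and 7 of the 8 members (17.6% and 21% of all genes). Directly against PND8 the lists differed, since the 8 members were lower after repopulation in both classes. Of the 5 genes, 1 was higher and none lower in Ki67-negative cells (18% and 18.6% of all genes). In Ki67-positive cells 1 was higher and 1 lower (16.7% and 14.2%). Per library, H2-Aa was at 24.4 and 26.9 CPM in adult against 0.462 to 1.93 CPM at PND8 and 1.25 to 3.96 CPM after repopulation. H2-Ab1 was at 21.2 and 29.3 CPM in adult, 2.97 to 10.4 CPM at PND8 and 27.9 to 38.1 CPM after repopulation, so these partner chains did not keep a ratio. The monocyte marker Ccr2 was at 12.95 and 14.4 CPM in adult, 1.84 to 3.84 CPM at PND8 and 5.33 to 8.85 CPM after repopulation, and the neutrophil gene Ngp at 83.4 and 20.2 CPM in adult against at most 0.771 CPM elsewhere. Plac8 of the same list went the other way. It was at 1.16 and 0.733 CPM in adult, 2.85 to 6.70 CPM at PND8 and 6.87 to 12.95 CPM after repopulation. Their part in the result was not tested.

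Siglec1, a sialic acid receptor of the second list chosen here after its values were seen, was with Igfbp4 one of the genes of that list above adult after repopulation in both Ki67 classes, and the only one of the 18 tested that was also above PND8 in both by edgeR. Relative to adult it was at log2 1.20 and 0.84 in the PND8 classes and at 3.06 and 2.23 in the repopulation classes, each past the threshold in edgeR's test. It was lower in Ki67-positive than in Ki67-negative repopulation cells (log2 -0.83).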
